A study of Rattus norvegicus with 8 samples.

Results

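The 5 alpha-class glutathione transferase genes of the array, Gsta1 to Gsta5, of 5147 gene symbols it names in all, were examined in rat liver. They are read by 10 of the 8740 probe sets that are not Affymetrix controls, chosen because the annotated symbol includes one of these names. Of the 10, 8 were matched to 1 gene each, namely 3 to Gsta3, 3 to Gsta1 and 2 to Gsta4, and the other 2 to both Gsta5 and Gsta2. Gsta2 and Gsta5 have no probe set of their own and were measured only together. The members were set by name and not by a cut on any measured value, though with earlier results of these data known.

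Each of 8 male Fischer 344 rats (age given in the labels as 6, with no unit) gave 1 snap-frozen liver and 1 Affymetrix Rat Genome U34 array (version A). The D3T group was 4 rats gavaged with 3H-1,2-dithiole-3-thione (D3T), a sulfur heterocycle of the dithiolethione class, at 0.3 mmol per kg body weight in saturated sucrose on days 1, 3 and 5. The vehicle group was 4 rats given 0.2 ml of saturated sucrose alone. The gavage days are given for 3 of the vehicle rats and not for vehicle replicate 2, and all 8 rats ate AIN 76A chow. Whole liver was measured, so fewer cells of a type and less RNA per cell cannot be told apart.

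Glutathione transferases join the thiol of glutathione to reactive, electron-poor compounds, which can then be exported and excreted. The alpha class forms cytosolic dimers that are abundant in rat hepatocytes, and it also reduces lipid hydroperoxides. Several alpha-class genes of the rat are known to be induced through antioxidant response elements, short DNA sites bound by the transcription factor encoded by Nfe2l2 with a small Maf partner. Dithiolethiones are known inducers of this pathway and protect rats against aflatoxin, whose epoxide is conjugated with high activity by the rat subunit called Yc2.

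Rat names in this family have changed over time, and the symbols used here are those of the array annotation, which RefSeq also uses for its rat assembly GRCr8. In the RefSeq table Gsta3 carries the older names Gsta5 and Yc2, and Gsta1 carries the older names Yc1, Gsta3 and Gsta5. The aflatoxin-conjugating Yc2 subunit is therefore the gene called Gsta3 below. Gsta3 and Gsta1 lie on chromosome 9, whereas Gsta4, Gsta5 and Gsta2 lie on chromosome 8, with Gsta5 the next gene in the table after Gsta4.

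The RefSeq windows around the annotated starts of these genes (250 bases before to 50 after, GRCr8) are shown because several rat alpha-class genes are known to be induced through antioxidant response elements. They were searched on both strands for TGACNNNGC, the core of the antioxidant response element, whose matches are in capitals. Whether a match bears on the different rises of the members was not tested.

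Gsta3 (chr9:31154739-31155038, plus strand): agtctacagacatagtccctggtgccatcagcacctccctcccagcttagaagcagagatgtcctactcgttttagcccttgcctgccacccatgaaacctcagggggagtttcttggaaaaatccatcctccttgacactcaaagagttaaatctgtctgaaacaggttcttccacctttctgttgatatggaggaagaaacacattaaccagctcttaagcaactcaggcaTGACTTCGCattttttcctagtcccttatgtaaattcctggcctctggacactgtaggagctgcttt
Gsta1 (chr9:31216483-31216782, minus strand): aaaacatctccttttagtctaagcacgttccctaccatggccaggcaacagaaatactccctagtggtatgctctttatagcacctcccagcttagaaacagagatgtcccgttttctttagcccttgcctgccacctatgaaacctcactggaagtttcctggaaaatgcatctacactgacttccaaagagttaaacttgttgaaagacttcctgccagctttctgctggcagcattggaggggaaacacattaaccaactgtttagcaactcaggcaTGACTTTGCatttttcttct
Gsta2 (chr8:88077043-88077342, minus strand): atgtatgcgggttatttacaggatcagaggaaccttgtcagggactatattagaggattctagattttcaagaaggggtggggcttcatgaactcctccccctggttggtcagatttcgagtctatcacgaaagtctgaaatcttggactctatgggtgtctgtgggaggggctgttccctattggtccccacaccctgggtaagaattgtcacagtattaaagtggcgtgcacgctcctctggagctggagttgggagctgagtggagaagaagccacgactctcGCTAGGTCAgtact
Gsta4 (chr8:87947015-87947314, plus strand): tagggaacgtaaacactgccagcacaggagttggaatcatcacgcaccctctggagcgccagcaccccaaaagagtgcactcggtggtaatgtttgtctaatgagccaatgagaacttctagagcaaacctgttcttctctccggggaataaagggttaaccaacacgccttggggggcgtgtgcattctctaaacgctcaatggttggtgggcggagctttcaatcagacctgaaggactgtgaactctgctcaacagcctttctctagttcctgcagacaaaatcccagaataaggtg

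The Gsta3, Gsta1 and Gsta2 windows each held 1 match, against 12.1% of 33469 RefSeq windows of the same length with at least 1. No match was present in the Gsta4 window, or in the windows, not shown, of Gsta5 and of a second annotated Gsta3 start. Whether the annotated starts are where transcription begins was not examined. A window without a match, that of Gsta5 included, may therefore not cover the promoter of its gene. The Gsta3 and Gsta1 matches lay on the strand of the gene, and the Gsta2 match on the opposite strand. Over the best local alignment of their windows, Gsta3 and Gsta1 shared 201 of 263 aligned columns (76.4%), and the matches lie within the part the windows have in common, as the bases around them show.

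Gsta3: ctcaggcaTGACTTCGCattttt
Gsta1: ctcaggcaTGACTTTGCattttt

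These 23 bases differ at 1 position, C15T from Gsta3 to Gsta1, counted from the 5′ end of the stretch shown. The match lay at bases -17 to -9 from the annotated Gsta3 start and at bases 31 to 39 after the annotated Gsta1 start, so the offset depends on which start RefSeq chose. GCGTG, the core of the xenobiotic response element of the aryl hydrocarbon receptor, was found 0 times in the first Gsta3 window, once in the second, 0 times in those of Gsta1 and Gsta5, 2 times in that of Gsta2 and 3 times in that of Gsta4, and 29.7% of all windows held it. A match is a string of letters and not a shown binding site, and elements outside these windows were not searched.

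D3T livers had higher transcripts of Gsta3 and Gsta1 by every probe set, and of the pair Gsta5 and Gsta2 by both of theirs, while neither Gsta4 probe set passed the test. Of the 10 members, 8 had a signal above the floor of the fit (20.3) in vehicle arrays, and the other 2, the Gsta3 probe sets named S72506_s_at and rc_AA945082_at, were bright enough to be tested through their D3T arrays alone and so had to differ. Among the 8, limma called 6 higher and 0 lower at a Benjamini-Hochberg adjusted p of 0.05, against 4.20% of the 5244 probe sets tested that were called higher and 6.48% called lower (10.7% in either direction). A call with a rise of at least 2-fold was made for 5 of the 8 and for 1.26% of all probe sets. Every D3T array exceeded every vehicle array for 7 of the 8 and for 7.89% of all probe sets. The median log2 fold change was 1.60 over the 8 and 0.02 over all probe sets tested. With the 2 Gsta3 probe sets counted, 8 of 10 were called higher. In a fit of all 8740 probe sets with no filter on brightness, 7 of the 10 passed as higher, against 1.50% of all. These 7 include the 2 Gsta3 probe sets whose vehicle values were all set to the floor. Probe sets of 1 gene share transcripts, so the members are not independent.

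**Figure D1:**
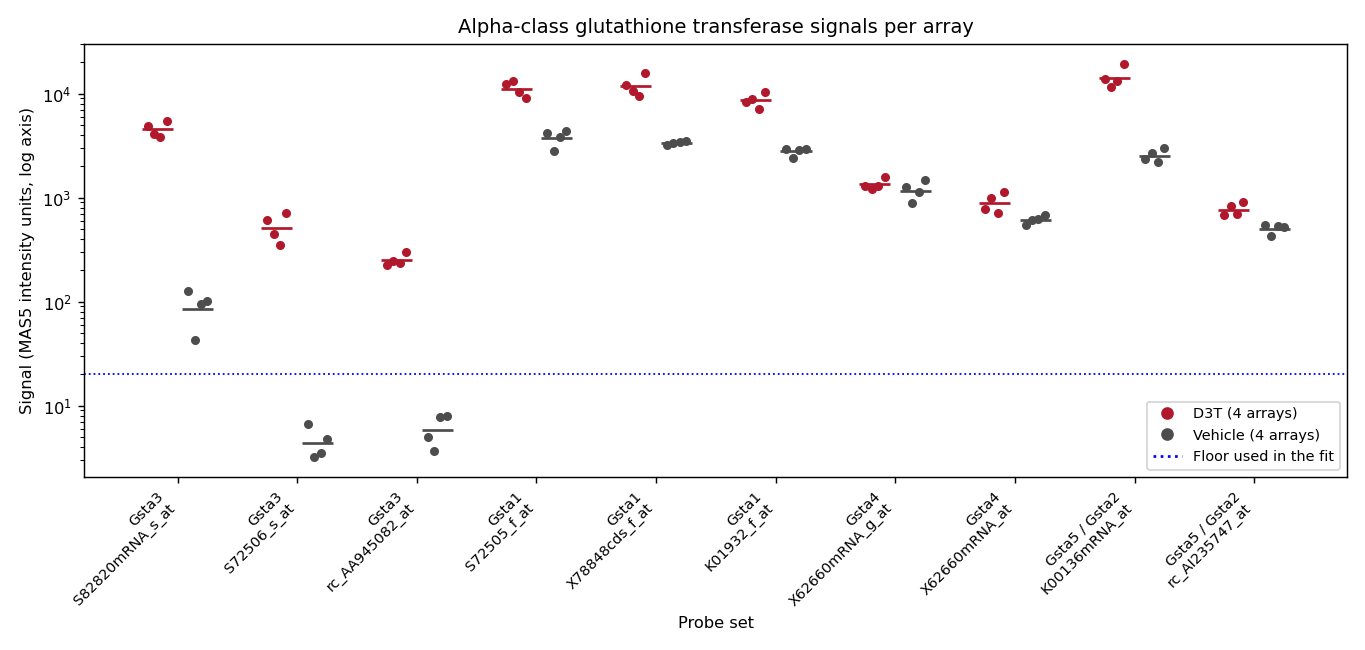
Signal of each alpha-class probe set in each array (MAS5 intensity units, log axis), D3T arrays in red and vehicle arrays in grey, with a line at each group's geometric mean and a dotted line at the floor of 20.3. The D3T arrays lie above the vehicle arrays for 9 of 10 probe sets, and Gsta4 probe set X62660mRNA_g_at overlaps.

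Gsta3 had the largest change of the family. Its brightest probe set, S82820mRNA_s_at, had signals of 4898, 4104, 3866 and 5479 in D3T replicates 1 to 4, against 127.6, 43.0, 93.8 and 101.2 in vehicle replicates 1 to 4. The lowest D3T array was 30.3 times the highest vehicle array, and vehicle replicate 2 was below the other vehicle arrays. The log2 fold change by limma was 5.74 ± 0.29 (SE), a 53.5-fold rise with a 95% confidence interval of 34.2 to 83.5, and only 1 tested probe set had a larger one. The adjusted p was 1.51e-06.

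The other Gsta3 probe sets were below the floor of the fit in every vehicle array, so only a bound can be given for their rise. For S72506_s_at the D3T signals were 611.2, 448.2, 352.5 and 716.2, against values between 3.19 and 6.69 in vehicle, all under the floor of 20.3. The rise was at least 25.3-fold. For rc_AA945082_at the D3T signals were 225.3, 243.9, 234.7 and 298.8, against 3.69 to 7.98 in vehicle, and the rise was at least 12.3-fold. In the fit with no filter, which did not select them, their adjusted p was 0.000396 and 0.000349 by limma. Every vehicle value of both was set to the floor, so these p-values hold no spread between vehicle rats. These bounds follow the floor: a floor at the 40th percentile gave log2 fold changes of 2.99 and 1.95. In all 3 Gsta3 probe sets D3T replicate 4 was the highest array.

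Gsta1, the Yc1 subunit, was already bright in vehicle livers and rose by all 3 of its probe sets. S72505_f_at had signals of 12351, 13261, 10463 and 9128 in D3T replicates 1 to 4, against 4218, 2809, 3808 and 4408 in vehicle, with a 2.98-fold rise (log2 fold change 1.57 ± 0.17 SE, adjusted p = 0.000345 by limma). X78848cds_f_at averaged 11992 ± 2766 in D3T livers and 3394 ± 134 in vehicle livers (SD, n = 4 each), and was 3.47-fold higher. K01932_f_at averaged 8709 ± 1306 in D3T livers and 2801 ± 263 in vehicle livers (SD, n = 4 each), and was 3.09-fold higher. The groups did not overlap in any of the 3, with the lowest D3T array between 2.07 and 2.69 times the highest vehicle array. The names of all 3 end in _f_at, which marks probes shared within a sequence family, and those of 2 Gsta3 probe sets end in _s_at, which marks probes that can match more than 1 transcript. Signal from a close relative was not told apart from that of the named gene. The Gsta3 probe set without such a mark, rc_AA945082_at, gave the bound of 12.3-fold above.

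Gsta5 and Gsta2, which encode the Ya type of subunit, were measured by a pair of probe sets that moved by different amounts. K00136mRNA_at had signals of 14009, 11550, 13362 and 19468 in D3T replicates 1 to 4, against 2336, 2668, 2212 and 2992 in vehicle. It was 5.65-fold higher (95% confidence interval 4.40 to 7.27, adjusted p = 8.37e-06 by limma), with 8 tested probe sets showing a larger log2 fold change. The other, rc_AI235747_at, had 677.0, 827.7, 688.9 and 905.4 in D3T replicates 1 to 4, against 544.7, 426.3, 536.7 and 521.6 in vehicle. It was 1.52-fold higher (95% confidence interval 1.21 to 1.92, adjusted p = 0.0297 by limma). All 4 D3T arrays were above all 4 vehicle arrays in each. The call for rc_AI235747_at was lost without D3T replicate 2 (adjusted p = 0.0567 by limma), D3T replicate 4 (0.0822), vehicle replicate 1 (0.0585), vehicle replicate 3 (0.0631) or vehicle replicate 4 (0.0607), while that for K00136mRNA_at held in all 20 alternatives. The rise of K00136mRNA_at was 3.71 times that of rc_AI235747_at, and the log2 difference between them was higher in each of the 4 D3T arrays than in every vehicle array. This pair was set side by side because its values differed, so the contrast carries no test, and which transcript each probe set reads was not tested.

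Gsta4 encodes an alpha-class enzyme known for conjugating hydroxynonenal, an aldehyde from lipid peroxidation. X62660mRNA_at had signals of 770.9, 999.8, 705.6 and 1142 in D3T replicates 1 to 4, against 551.1, 604.2, 629.1 and 685.2 in vehicle, a ratio of 1.44 (95% confidence interval 1.11 to 1.87) that did not pass (adjusted p = 0.0707 by limma). Its D3T arrays lay above its vehicle arrays, by as little as 1.03 times, and it passed without D3T replicate 3 (log2 fold change 0.64, adjusted p = 0.0475 by limma). X62660mRNA_g_at, made from the same transcript record, had 1288, 1224, 1294 and 1577 in D3T replicates 1 to 4, against 1259, 891.2, 1127 and 1464 in vehicle. Those groups overlapped, the ratio was 1.15 and its 95% confidence interval of 0.896 to 1.47 leaves out a rise of 1.5-fold (adjusted p = 0.433 by limma).

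**Figure D2:**
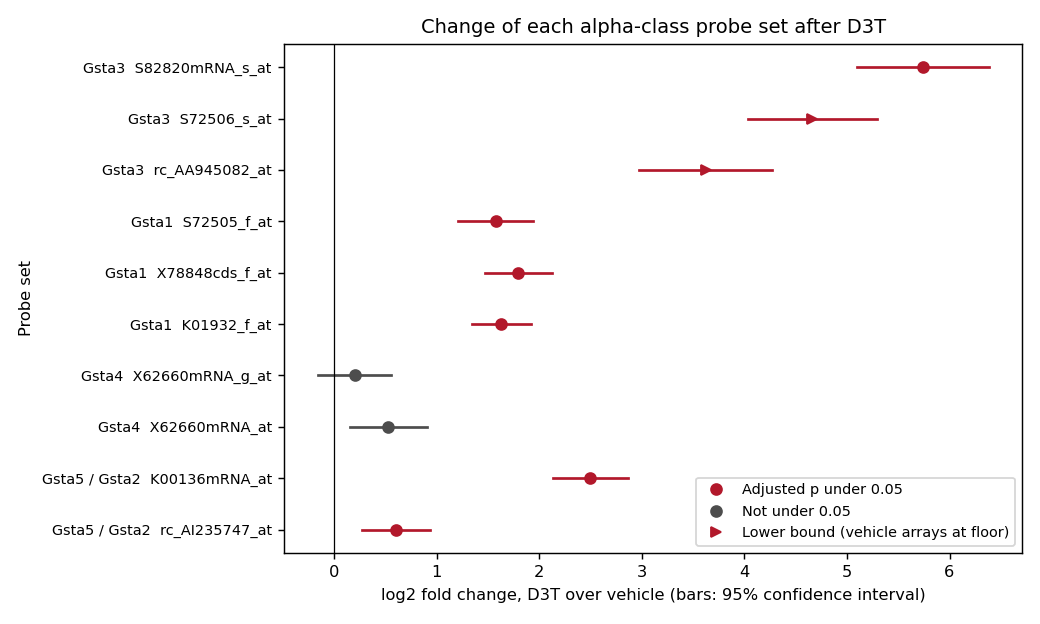
The log2 fold change of each alpha-class probe set, D3T over vehicle, with its 95% confidence interval from limma; red marks an adjusted p under 0.05 and a triangle a lower bound. Gsta3 lies between 3.62 and 5.74, K00136mRNA_at at 2.50, rc_AI235747_at of the same pair at 0.61, Gsta1 between 1.57 and 1.79, and Gsta4 at 0.53 and 0.20.

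Whether the 3 genes measured alone responded to different degrees was tested on the per-array difference of log2 signals between their brightest probe sets, which compares changes and not levels. Gsta3 rose more than Gsta1 by 4.17 ± 0.29 (SE) on the log2 scale, a ratio of 18.0 between the fold changes. It rose more than Gsta4 by 5.54 ± 0.24. Gsta1 rose more than Gsta4 by 1.37 ± 0.20, a ratio of 2.59. The groups did not overlap in any of these 3 comparisons, and each had an exact two-sided permutation p of 0.0286, the smallest that 70 assignments allow (n = 4 per group, and 0.0286 after adjustment over the 3 pairs). The sizes depend on the probe sets used. Gsta4 was represented by X62660mRNA_g_at (log2 fold change 0.20), while X62660mRNA_at had 0.53. The Gsta3 and Gsta1 probe sets used carry the _s_at and _f_at marks explained above.

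Within a group, the rats differed in a way that several members shared. D3T replicate 4 was the highest D3T array in 9 of the 10 members, the exception being S72505_f_at, in which it was the lowest, while it was the highest D3T array in 26.6% of all probe sets tested. Its median deviation from the D3T mean over the members was 0.27 on the log2 scale. Members that read the same gene are not separate observations, and the pattern was not confined to the family. Of the Nfe2l2 targets listed below, D3T replicate 4 was also highest for Gstp1, Akr7a3, Aldh1a1, Ephx1, Gclc, Gclm, Txnrd1, Hmox1 and Abcc3. For Nqo1, Abcc2, Prdx1 and Akr7a2 of that list another D3T array was highest. D3T replicate 3 was the lowest D3T array in 5 members, against 25.7% of all probe sets. Of the 8 members above the floor in vehicle, vehicle replicate 2 was the lowest vehicle array in 5 and vehicle replicate 4 the highest in 5, against 27.5% and 24.3% of all probe sets. Vehicle replicate 2 is the rat whose gavage days are not given. In the alternative without it, the log2 fold change of each member was still positive, and the same number of members passed as with all arrays, 8 of 10 with the 2 Gsta3 probe sets at the floor in vehicle included. The actin 3' to 5' log2 ratio, a sign of RNA quality, was 0.402, 0.425, 0.553 and 0.225 in D3T replicates 1 to 4, against 0.673, 0.614, 0.532 and 0.671 in vehicle replicates 1 to 4. D3T replicate 4 was the lowest of all arrays in this ratio, and D3T replicate 3 the highest of the D3T arrays. The part of RNA quality in the spread between rats was not tested.

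**Figure D3:**
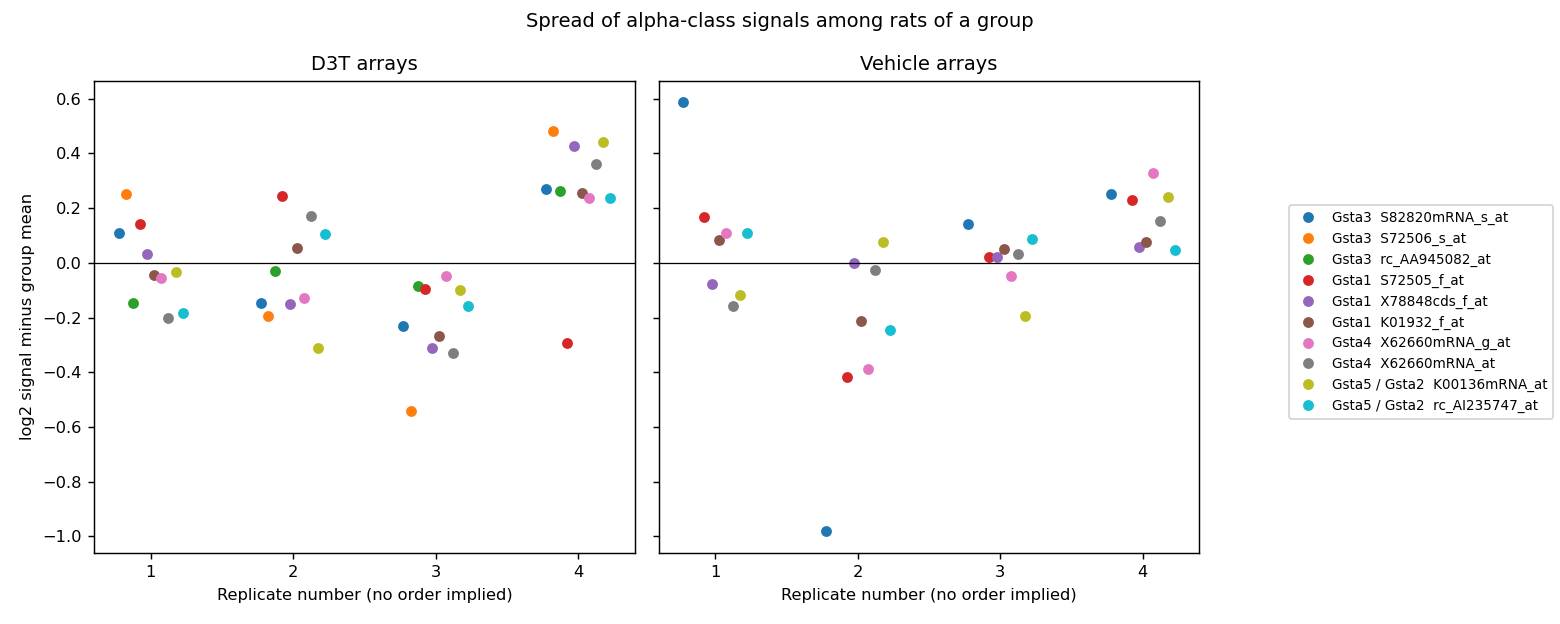
Log2 signal minus the group mean for each alpha-class probe set, by array, with D3T arrays on the left and vehicle arrays on the right; the 2 Gsta3 probe sets at the floor in vehicle are left out there. D3T replicate 4 is above the mean in 9 of 10 probe sets.

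Signs of RNA quality overlapped between the groups. The actin ratio averaged 0.401 ± 0.135 in D3T arrays and 0.623 ± 0.0663 in vehicle arrays (SD, n = 4 each, exact two-sided permutation p = 0.0571), and the same ratio for the GAPDH controls 0.650 ± 0.236 in D3T arrays and 0.897 ± 0.158 in vehicle arrays (SD, n = 4 each, exact two-sided permutation p = 0.114). With the actin ratio as a covariate 5 of the 8 members above the floor in vehicle still passed as higher. Of all probe sets tested 0.458% did. The log2 fold changes of the 5 were 5.58 for S82820mRNA_s_at of Gsta3, 1.37 to 1.78 for Gsta1 and 2.24 for K00136mRNA_at. Counting the 2 Gsta3 probe sets at the floor in every vehicle array, which had to differ, 7 of all 10 passed. The call that was lost was that of rc_AI235747_at, at 0.41 (adjusted p = 0.460 by limma). The Gsta4 probe sets, not called without the covariate either, had 0.16 (X62660mRNA_at) and 0.12 (X62660mRNA_g_at) with it.

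Other cell types of liver were followed through marker lists. At 1 probe set per gene, 3.71% of all 3150 genes were higher and 5.84% lower. The summed signal of 10 hepatocyte markers was 223279 to 304839 in D3T arrays and 178808 to 265120 in vehicle arrays, with 0 markers higher and 1 lower. The exact two-sided permutation p of this sum was 0.2 (n = 4 per group). An unadjusted p under 0.05 by limma was found for 5 of the 10. Alb (log2 fold change 0.46), Serpina1 (0.45), Ttr (0.40) and Ass1 (0.27) stood higher and Fgb lower. For 6 Kupffer cell and macrophage markers the sum was 3027 to 3757 in D3T arrays and 4205 to 5442 in vehicle arrays, with 1 higher and 2 lower, and for 5 endothelial markers it was 1237 to 1385 in D3T arrays and 1471 to 1738 in vehicle arrays, with 0 higher and 1 lower. The groups did not overlap in these last 2 sums (exact permutation p = 0.0286 for each, n = 4 per group). A sum follows its brightest markers and does not show that a list moved as a whole. Among endothelial markers Icam1, the brightest (log2 fold change -0.23), Kdr (-0.32), Pecam1 (-0.13) and Flt1 (0.03) did not pass. Among macrophage markers Cd14 (0.80) and Ptprc (0.64) stood higher, while Cyba, Cd74, Lyz2 and Clec4f stood lower. Of 8 stellate cell and fibroblast markers 0 were higher and 1 lower. Among them 5 had an unadjusted p under 0.05 by limma, with Sparc higher and Col3a1, Vim, Col1a2 and Reln lower. Of 6 bile duct markers 0 passed in either direction by limma (1 had an unadjusted p under 0.05). Of the lymphocyte and neutrophil markers only Cd4 was tested. Its signal was 266.7 to 347.0 in D3T arrays and 202.9 to 222.4 in vehicle arrays, without overlap (exact two-sided permutation p = 0.0286, n = 4 per group), though it did not pass in the fit (adjusted p = 0.102 by limma). The endothelial call, Lyve1, passed in 1 of the 8 fits without 1 array and the stellate call, Col3a1, in 2. With the actin covariate the calls of Fgb, the hepatocyte marker that was lower (log2 fold change -0.43, against -0.80 without it), Cd14 (0.65), Lyve1 (-0.79) and Col3a1 (-0.87) were lost (adjusted p 0.259 to 0.379 by limma), while the Kupffer cell and macrophage markers Cyba and Cd74 still passed as lower. The part of these shifts in the alpha-class values was not tested.

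Among the other glutathione transferase genes, 7 of 12 measured alone were higher and 0 lower, with a median log2 fold change of 0.52, where 3.71% of 3150 genes were higher and 5.84% lower at 1 probe set per gene, with a median of 0.03. Gstp1, the pi-class enzyme, was 29.9-fold higher, Gstm1 of the mu class 2.29-fold and the microsomal Mgst2 1.90-fold. By probe set, both of the pi class, 4 of 6 of the mu class, all 3 of the theta class, 2 of 3 microsomal, 1 of 2 of the kappa class and 0 of 2 of the omega class passed as higher. The single probe set of Hpgds, a sigma-class prostaglandin synthase, stood at -0.47 (log2 fold change), without passing. On the log2 scale the fold changes of probe sets ran from 0.20 to 5.74 in the alpha class, from 4.90 to 5.90 in the pi class and from 0.12 to 0.29 in the omega class.

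**Figure D4:**
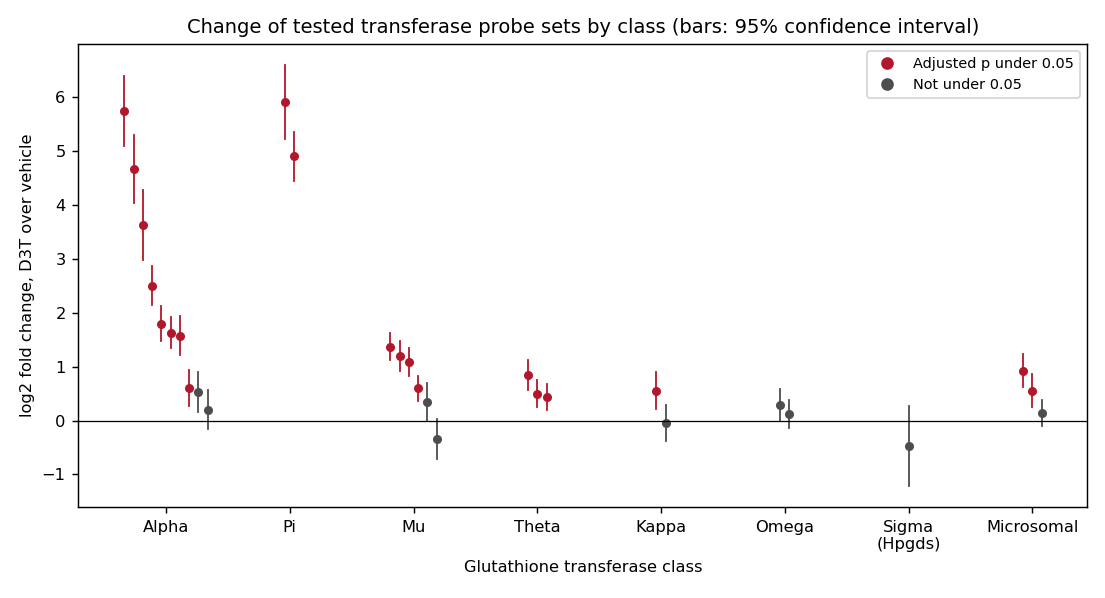
The log2 fold change, D3T over vehicle, of every tested transferase probe set matched to a transferase gene of the fixed list, with 95% confidence intervals, grouped by class and coloured red where the adjusted p was under 0.05. Alpha-class values run from 0.20 to 5.74, and the 2 pi-class values are 4.90 and 5.90.

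Genes that supply glutathione and that handle its conjugates were followed as well. Among all 3150 genes, 3.71% were higher and 5.84% lower. Of 10 genes for glutathione supply and reduction 4 were higher and 0 lower (median log2 fold change 0.29), led by Gpx2, a glutathione peroxidase, at 4.61-fold, Gsr, which reduces glutathione disulfide, at 2.27-fold, and Gclc, the catalytic subunit of the first step of glutathione synthesis, at 2.10-fold. Of 6 genes for export of conjugates and mercapturate formation 1 was higher and 1 lower. The canalicular pump Abcc2, which exports glutathione conjugates into bile, had a log2 fold change of -0.93 (adjusted p = 0.00513 by limma), and Acy1, an aminoacylase, rose 1.47-fold. Gclc did not pass without D3T replicates 1, 2 or 4 or vehicle replicate 1 (adjusted p 0.0537 to 0.0772 by limma), nor Acy1 without D3T replicates 1, 2 or 4 or vehicle replicates 1 or 3 (0.0552 to 0.0906). Of 13 phase 2 and reductase genes known as Nfe2l2 targets, a list that shares 5 tested genes with these lists and 1, Gstp1, with the other transferases, 6 were higher and 1 lower (median 0.88), led by Gstp1, Akr7a3, a reductase of aflatoxin aldehydes, at 16.5-fold and Aldh1a1, a retinaldehyde dehydrogenase, at 4.37-fold. With the actin ratio as a covariate Gstp1, Gstm1, Akr7a3 and Aldh1a1 passed, while Mgst2, Gpx2, Gsr, Gclc, Abcc2 and Acy1 did not (adjusted p 0.104 to 0.599 by limma). The log2 fold changes with the covariate were 2.05 for Gpx2, 1.07 for Gsr, -1.04 for Abcc2 and 0.64 for Acy1, each within 1.5 times the value without it, as was that of Mgst2 at 0.69, whereas Gclc had 0.44 with the covariate and 1.07 without it.

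Of 10 tested factors known to act on alpha-class genes, transcripts of 2 were called higher and of 1 lower (median log2 fold change 0.27). Among all 3150 genes 3.71% were higher and 5.84% lower, and the list was not tested against these shares. Rxra, a nuclear receptor partner, was 5.55-fold higher, Hnf4a, a hepatocyte nuclear receptor, 1.41-fold higher (adjusted p = 0.0477 by limma), and Cebpb, a liver transcription factor, had a log2 fold change of -0.59. Hnf4a passed in 0 of the 8 fits without 1 array (adjusted p 0.0527 to 0.116 by limma), and Cebpb did not pass without D3T replicate 1 (0.0565) or vehicle replicate 1 (0.0575). With the actin covariate none of the 3 passed, at log2 fold changes of 2.73 for Rxra (adjusted p = 0.130 by limma), 0.31 for Hnf4a (0.556) and -0.50 for Cebpb (0.317). Nfe2l2 itself had -0.73 ± 0.37 (SE) and did not pass (adjusted p = 0.219 by limma).

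The genes whose profiles were most like each member were found by the root mean square difference over the 8 arrays between log2 signals set to the vehicle mean. For Gsta3 they were Gstp1 (0.81), Akr7a3 (1.27), Acsm2 (2.41), Rxra (2.45) and Aldh1a1 (2.57), so that only the first 2 were within a log2 difference of 2. For Gsta1 they were Adh1c (0.23), Ephx1 (0.30), Aldh1l1 (0.32), Nqo1 (0.35) and Mmp2 (0.36), all higher after D3T by 2.23-fold to 3.44-fold. Of the 10 named so far, Acsm2 did not pass without D3T replicate 4 (adjusted p = 0.0512 by limma), and Mmp2 did not without D3T replicates 1, 2 or 4 or vehicle replicates 3 or 4 (0.0526 to 0.0693). With the actin covariate Adh1c (log2 fold change 1.59, adjusted p = 0.0774 by limma), Nqo1 (1.67, 0.0802), Rxra (2.73, 0.130), Mmp2 (1.13, 0.281) and Acsm2 (2.32, 0.257) did not pass. Ephx1, an epoxide hydrolase, had signals of 15877, 16519, 14192 and 18974 in D3T replicates 1 to 4, against 4939, 5246, 5234 and 5033 in vehicle, without overlap. For Gsta4 they were Abcb6, Rpl3, Rps3, Zfp706 and Rps10, at 0.13 to 0.14, and none of these passed the test. All these genes were picked for values close to the member's in the same arrays. A change like that of the member, or the lack of one, follows from that choice and is no separate result.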

How the data were processed

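Liver RNA of 8 rats was hybridised to 1 array each. The deposited values are signal intensities on a linear scale, made with MAS5 per the submitters' processing notes; no source used here gives its version, scaling target or detection calls. Arrays hold no read counts, and their number limits the precision. Separate rats are stated, so p-values measure the spread between animals. The 2% trimmed means of the arrays ran from 500.9 to 501.0, correlations of log2 signals between arrays from 0.896 to 0.962, and 2 arrays had the same value in at most 31 probe sets.

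Arrays were rescaled to a 2% trimmed mean of 500 (which moved no member by over 0.203%), floored at the 20th percentile (20.3) and put on the log2 scale. Of 8799 probe sets, 59 controls were dropped and the brightest 60% of the others were fitted in limma version 3.58.1 under R version 4.3.3, using lmFit and eBayes with its variance trend on intensity. Benjamini-Hochberg adjustment ran over all 5244. Folds are ratios of geometric means of floored signals. Scripts were tested on simulated data, where the fit recovered 16.4% of 1.5-fold, 47.8% of 2-fold and 86.4% of 4-fold changes in 200 of 5244 probe sets, with 4 of 104 calls false.

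The members and the gene lists were chosen with earlier results of these data known. Named genes were all members, the 5 genes most alike in profile to each member measured alone, and in each of 13 lists the 3 of largest change among those that passed, or the brightest gene where none did; a gene was represented by its brightest tested probe set. Ephx1 was given by array as an example chosen after its values were seen. The windows around annotated starts are from the RefSeq table of GRCr8, matched by symbol for all 5 genes, aligned with Biopython version 1.88.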

Additional observations from a re-analysis of the deposited data

Results flagged for a closer look

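Dixon's test for a sample apart from its group was applied to the log2 signals of each member in each group of 4 arrays, except where all 4 were below the floor. It picked out 1 of 18 groups: the vehicle arrays of Gsta1 probe set K01932_f_at, in which vehicle replicate 2, at a signal of 2409, lay below the other 3 (2961, 2893 and 2943), with a gap of 0.888 of the range. Chance picks out about 1 in 20 such groups.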

How the results depend on the processing

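Over 20 alternatives the 10 members gave 194 fold changes, of which 182 kept their direction and their side of the threshold and 0 were reversed. Of the 194, 19 came from S72506_s_at and 15 from rc_AA945082_at, which were bright through their D3T arrays alone and had to differ. Another 20 came from X62660mRNA_g_at, which passed in 0 of them and so kept its side. The 12 that changed side belonged to 2 probe sets. Gsta4 probe set X62660mRNA_at passed with quantile normalization (log2 fold change 0.61) and with only the brightest 30% of probe sets (0.53), and ran from 0.41 to 0.64 without 1 array. With the actin covariate it was lower, at 0.16 (adjusted p = 0.810 by limma). The log2 fold change of rc_AI235747_at was 0.61 with no filter, with no intensity trend and with the replicate block, and 0.41 with the actin covariate, without passing in any of these, and it ran from 0.53 to 0.67 without 1 array. The count of all probe sets past the threshold, 560, became 309 with no filter, 333 with no intensity trend, 290 with the replicate block and 35 with the actin covariate, and ran from 240 to 695 without 1 array; the cause was not tested. The deviations of same-numbered arrays correlated at 0.0633, -0.0861, 0.012 and -0.198. These values show no sign that the numbers pair the rats, but they cannot settle it. The log2 fold change of Zfp706, of which no call was made, was -0.080 with the actin covariate and -0.036 to 0.20 without 1 array, negative only without vehicle replicate 2. The least bright Gsta3 probe set, rc_AA945082_at, was tested in 15 of the alternatives. Values of genes outside the family under the alternatives were added after the data were seen.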

Other observations

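Alpha-class transferases are known to vary along the liver lobule, so zone markers were followed as well. At 1 probe set per gene, 3.71% of all 3150 genes were higher and 5.84% lower. Of 9 markers of the central zone 0 were higher and 3 lower, namely Oat, an ornithine aminotransferase, at a log2 fold change of -1.98, Cyp1a2 at -1.19 and Gulo, an enzyme of ascorbate synthesis, at -0.74. The rest of the central list did not pass and was mixed in direction. Cyp2e1, the brightest (log2 fold change 0.28), Slc1a2 (0.54), Rgn (0.14) and Cyp7a1 (0.07) stood higher. Glul (-0.47) and Rnase4 (-0.19) stood lower. With the actin 3' to 5' ratio as a covariate the log2 fold changes were -2.03 for Oat, -0.65 for Cyp1a2 and -0.85 for Gulo, and none of the 3 passed (adjusted p 0.0963 to 0.251 by limma). Of 10 markers of the portal zone 0 passed as higher and 0 as lower by limma, and 1 had an unadjusted p under 0.05. That gene was Ass1 of the urea cycle, also the brightest of the list, which had a log2 fold change of 0.27. The summed signal of the central list was 43577 to 49492 in D3T arrays and 43584 to 54620 in vehicle arrays (exact two-sided permutation p = 0.229, n = 4 per group), and that of the portal list 49344 to 58780 in D3T arrays and 46888 to 57947 in vehicle arrays (exact two-sided permutation p = 0.371, n = 4 per group).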
